A study of Mus musculus with 16 samples.

Results

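The 10 genes described here, *Anxa1*, *Anxa2*, *Anxa4*, *Anxa5*, *Anxa6*, *S100a10*, *Dysf*, *Ano5*, *Ahnak* and *Ahnak2*, encode annexins, an annexin partner, membrane-fusion and lipid-scrambling proteins and giant scaffolds that work at the muscle cell surface. They were taken by gene symbol from the 41388 genes of the count table, and all 10 had enough counts to be tested in every comparison. In *Mtm1* KO quadriceps, *Ahnak2*, *Anxa4*, *Anxa2* and *S100a10* were higher than in WT, called at an adjusted p up to 0.01 in edgeR's quasi-likelihood test. Of all genes tested, 1.91% were called higher there. *Ahnak2* and *Anxa4* were also called with all 16 libraries and in each of 6 fits that left out a library. *Anxa2* and *S100a10* were called in 1 of those 6 fits and not with all 16 libraries. When both treatments were analysed together, *Ano5* was called lower, a direction in which 10.7% of all genes were called. No tamoxifen comparison called any of the 10, and these comparisons called 0% to 0.476% of all genes tested.

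A muscle fiber pulls on its own plasma membrane, the sarcolemma, each time it contracts, and tears are part of its normal life. Calcium entering through a tear recruits annexins, which bind acidic phospholipids and pile up at the wound, while dysferlin (*Dysf*) and its partners bring vesicles to the site and AHNAK proteins and S100A10 form a scaffold under the membrane. Loss of *Dysf* or *Ano5* causes limb-girdle muscular dystrophy, and annexins are also made by fibroblasts, vessels and immune cells of the muscle.

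RNA from the quadriceps of C57BL/6 mice at postnatal day 36 was sequenced in 4 groups of 4 libraries, each from 1 mouse. They were wild type (WT), wild type given tamoxifen (WT + TAM), *Mtm1* knockout (labelled mtm1 -/-, *Mtm1* KO) and the knockout given tamoxifen (*Mtm1* KO + TAM). Tamoxifen, an estrogen receptor modulator, was mixed into the diet at a labelled dose of 40 mg/kg per day from day 21, and the untreated groups carried no drug. The knockout, a model of X-linked myotubular myopathy, lacks exon 4 of *Mtm1* in every cell of the body, so a change in a fiber and a change in the cells around it are both part of the comparison.

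The 14 libraries that the study analysed were used, 3 each in WT and *Mtm1* KO and 4 each in the treated groups. Totals over all 16 libraries were 25116179 to 29847222 counts. *Mtm1*, the targeted gene, had 282 to 459 counts in the 7 wild-type libraries analysed and 53 to 97 in the 7 knockout libraries, a log2 fold change of -2.56 ± 0.17 (SE) for *Mtm1* KO against WT. The library labelled WT replicate 1, left out by the study without a stated reason, had 74 counts of *Mtm1*, within the knockout range. The library labelled KO replicate 12, also left out, had 85. Results with both added are given beside those that depend on them. Reads outside exon 4 still count toward *Mtm1* in the knockout. Scaling by library total alone, in place of TMM, moved the median difference over the genes tested from 0.02 to 0.33 on the log2 scale in *Mtm1* KO against WT. Every difference below is therefore relative to the TMM scale, unless another scaling or tool is named.

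Levels are RPKM values, reads scaled to gene length and library total, divided by the TMM factor of each library, which makes libraries with different RNA make-up comparable. By this level per length, the order of the WT means was *Anxa6* (87.1), *Anxa5* (54.8), *S100a10* (36.7), *Ano5* (24.6), *Anxa2* (24.3), *Dysf* (14.3), *Ahnak* (13.98), *Anxa1* (13.1), *Anxa4* (3.61) and *Ahnak2* (0.425). The ranges of neighbours overlapped from *Ano5* down to *Anxa1* and not elsewhere. In *Mtm1* KO the order was *Anxa6* (100.4), *Anxa5* (86.5), *S100a10* (74.8), *Anxa2* (60.6), *Ahnak* (25.1), *Dysf* (19.8), *Anxa1* (19.7), *Ano5* (12.97), *Anxa4* (12.6) and *Ahnak2* (4.72). Here the ranges of neighbours overlapped except between *Anxa2* and *Ahnak*, *Anxa1* and *Ano5*, and *Anxa4* and *Ahnak2*.

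**Figure D1:**
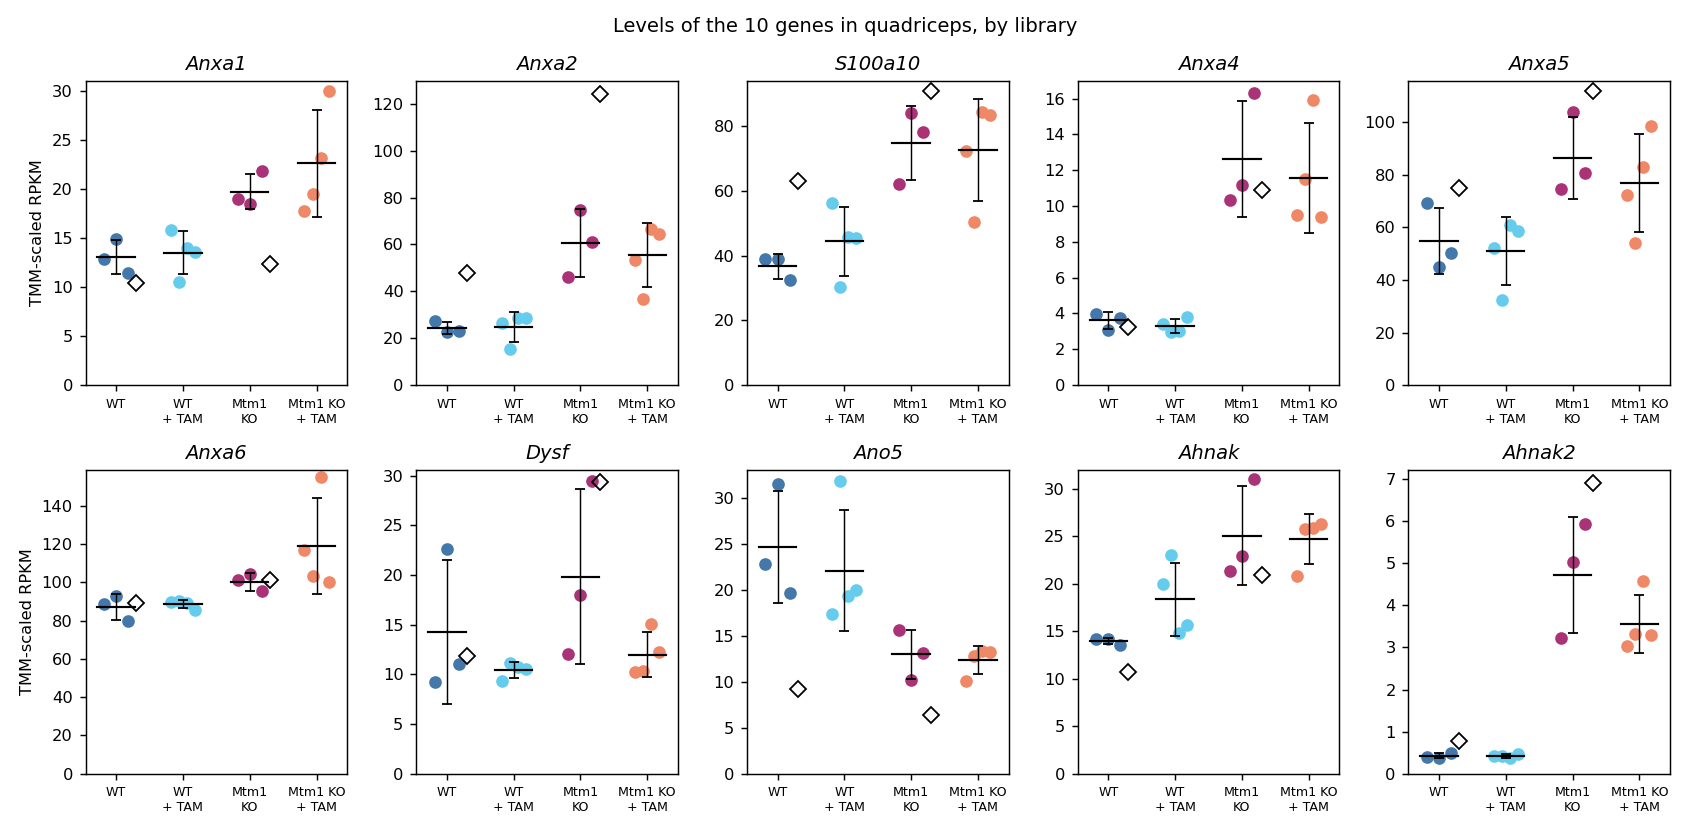
TMM-scaled RPKM (vertical axes, from 0) of each gene in each library of the 4 groups, with filled points for the 14 libraries analysed, lines and bars for their mean ± SD and open diamonds for the 2 libraries that the study left out. *Ahnak2* and *Anxa4* were higher and *Ano5* lower in every knockout library analysed than in any wild-type one, and *Dysf* was spread within WT and *Mtm1* KO.

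The comparison of *Mtm1* KO with WT asks what loss of the phosphatase changes in untreated muscle. Of the 10 genes, 4 were higher at an adjusted p of at most 0.01 and 0 were lower, where 1.91% and 1.69% of the 14740 genes tested were called in these directions. All 3 *Mtm1* KO libraries lay above all 3 WT libraries for 8 of the 10 genes and below them for 1, against 18.7% and 17% of all genes. The median log2 fold change of the 10 was 0.75, beside 0.02 over all genes tested. The 10 genes were chosen with earlier results of these data known, so the shares here and below describe them and do not test the set. DESeq2 and edgeR's exact test called 7 of the 10 at the same threshold, adding *Anxa1*, *Ahnak* and *Ano5*. They also called more of all genes, 1678 with DESeq2 and 1448 with the exact test, where the main test called 531. In all 16 libraries, 2 were called, *Anxa4* and *Ahnak2*, where 211 of all genes were called. With each WT or *Mtm1* KO library left out in turn, 2 to 4 were called, 4 of them only without KO replicate 9, and *Anxa4* and *Ahnak2* passed in all 6 of these fits.

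*Ahnak2* encodes a giant PDZ-containing scaffold related to AHNAK. Its level was 0.409, 0.378 and 0.489 in the WT libraries and 3.22, 5.02 and 5.93 in *Mtm1* KO. The WT + TAM libraries had 0.429, 0.412, 0.371 and 0.475, and *Mtm1* KO + TAM had 3.04, 3.32, 4.58 and 3.29. Every knockout library was above every wild-type library, with or without tamoxifen. In counts, 125 to 182 reads in the 7 wild-type libraries compared with 1289 to 2628 in the 7 knockout libraries. The log2 fold change was 3.47 ± 0.25 (SE, adjusted p = 2.14e-04), an 11.1-fold difference. The library labelled WT replicate 1 had a level of 0.785, above the other WT libraries, and KO replicate 12 had 6.90, above the other *Mtm1* KO libraries. In all 16 libraries the value for *Ahnak2* was 3.35 ± 0.33 (SE, adjusted p = 6.72e-04). The exons of *Ahnak2* (chr12:112772194-112802657, minus strand, GRCm38) are internally repetitive, with 6930 distinct stretches of 50 bases in 14163 exonic bases, and 0 of these stretches occur in another gene.

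*Ahnak* (chr19:8989284-9076914, plus strand), the other giant scaffold, binds the annexin A2 and S100A10 complex under the membrane. Its level was 14.2, 14.2 and 13.6 in WT and 21.3, 23.0 and 31.0 in *Mtm1* KO, and the groups did not overlap. The log2 fold change of 0.85 ± 0.16 (SE) had an adjusted p of 0.0122 in edgeR and so missed the threshold, while DESeq2 gave 3.41e-05. The treated libraries had 20.005, 23.1, 14.9 and 15.6 in WT + TAM and 20.9, 25.8, 25.9 and 26.3 in *Mtm1* KO + TAM. These groups overlapped, and the log2 fold change of *Ahnak* between them was 0.41 ± 0.15 (SE, adjusted p = 0.0834). The difference between the 2 genotype effects was -0.41 ± 0.23 (SE, adjusted p = 1.00), which did not pass the test.

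*Anxa2* and *S100a10* encode the 2 chains of a heterotetramer that links phospholipid to actin and AHNAK. *Anxa2* (chr9:69453620-69491795, plus strand) had 27.2, 22.5 and 23.2 in WT and 46.1, 74.7 and 61.0 in *Mtm1* KO. In the treated groups it had 26.6, 15.2, 28.6 and 28.6 in WT + TAM and 53.6, 36.8, 66.5 and 64.5 in *Mtm1* KO + TAM. The knockout libraries analysed were all above the wild-type libraries analysed, and the lowest of them was *Mtm1* KO + TAM replicate 14. The left-out WT replicate 1, at 47.7, was above that library and above KO replicate 9. The log2 fold change of *Anxa2* was 1.32 ± 0.19 (SE, adjusted p = 0.00394) for *Mtm1* KO against WT.

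*S100a10* (chr3:93555080-93564643, plus strand) had levels of 38.8, 39.1 and 32.3 in WT and 62.2, 84.2 and 78.1 in *Mtm1* KO, without overlap. Its log2 fold change was 1.03 ± 0.15 (SE, adjusted p = 0.00469). In WT + TAM its levels were 56.1, 30.3, 45.7 and 45.4, and in *Mtm1* KO + TAM 72.3, 50.5, 84.5 and 83.4. Here WT + TAM replicate 5 was above *Mtm1* KO + TAM replicate 14. The calls of both genes in untreated muscle depended on the libraries. With the left-out WT replicate 1 (*Anxa2* 47.7, *S100a10* 63.0) and KO replicate 12 (124 and 90.9) added, the adjusted p was 0.0590 for *Anxa2* and 0.0654 for *S100a10*. Each of these genes passed in 1 of the 6 fits that left out a library, the one without KO replicate 9, and the highest adjusted p was 0.0207 for *Anxa2* and 0.0240 for *S100a10*.

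The ratio of *Anxa2* to *S100a10* was formed within each library, so scaling between libraries does not enter it. It was 0.700, 0.576 and 0.719 in WT, 0.473, 0.503, 0.626 and 0.631 in WT + TAM, 0.741, 0.888 and 0.782 in *Mtm1* KO, and 0.740, 0.729, 0.787 and 0.774 in *Mtm1* KO + TAM. All 7 knockout libraries lay above all 7 wild-type libraries. The mean log2 ratio was -0.37 in the knockout and -0.74 in the wild type, a difference of 0.38 with p = 5.83e-04 in an exact two-sided permutation test, the lowest value that the 3432 splits can give. Within the untreated libraries the difference was 0.28 (exact p = 0.10, the smallest for 3 against 3), and within the treated libraries 0.45 (exact p = 0.0286, the smallest for 4 against 4). The library labelled WT replicate 1 had a ratio of 0.757, inside the knockout range, and KO replicate 12 one of 1.37, and with both added the difference was 0.44 (exact p = 9.32e-04).

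The start region of *Anxa2* and that of *Ahnak* are shown because these genes act in 1 complex. Both were also higher in each untreated *Mtm1* KO library analysed than in any WT library analysed. The bases run 5′ to 3′ up to the first annotated exon and were read from the RefSeq promoter table for GRCm38.p6. Capitals mark the AP-1 motif TGANTCA in *Anxa2* (chr9:69453433-69453619, plus strand) and, in *Ahnak* (chr19:8989034-8989283, plus strand), the reverse complement of the TEAD motif GGAATG.
Anxa2: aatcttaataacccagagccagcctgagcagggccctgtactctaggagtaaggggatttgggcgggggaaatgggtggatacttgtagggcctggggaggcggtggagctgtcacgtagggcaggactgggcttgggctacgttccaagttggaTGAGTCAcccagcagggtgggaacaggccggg
Ahnak: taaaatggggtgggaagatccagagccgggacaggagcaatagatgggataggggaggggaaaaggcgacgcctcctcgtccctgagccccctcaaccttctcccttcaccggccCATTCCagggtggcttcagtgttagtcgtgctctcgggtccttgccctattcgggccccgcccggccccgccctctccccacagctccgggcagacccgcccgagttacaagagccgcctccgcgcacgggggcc
Both strands of the promoter windows of the 8 genes in the table were searched, and *Anxa6* and *S100a10* were not among them. The AP-1 motif occurred in *Anxa2* only, beside 7.81% of 32851 mouse windows. The TEAD motif occurred in *Ahnak*, *Ahnak2* and *Anxa1*, beside 14.7% of windows, and the E-box CAGCTG in *Ahnak2* and in the second window of *Anxa4*, beside 16.3%. The palindromic estrogen response element was in 0 of the 8, and in 0.07% of all windows. A match of letters is not evidence of binding.

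*Anxa4* (chr6:86736840-86793584, minus strand), a calcium-dependent membrane binder that dampens lipid movement, was higher in the knockout in both treatments. Its level was 3.99, 3.07 and 3.76 in WT and 10.4, 11.2 and 16.3 in *Mtm1* KO. The treated libraries had 3.39, 2.98, 3.03 and 3.78 in WT + TAM and 9.47, 11.5, 15.9 and 9.36 in *Mtm1* KO + TAM. Every knockout library was above every wild-type library. The log2 fold change was 1.81 ± 0.20 (SE, adjusted p = 0.00131), and with the 2 left-out libraries, at 3.22 and 10.9, the gene was still called.

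*Anxa1*, which inhibits phospholipase A2 and signals through formyl peptide receptors, had 12.9, 14.8 and 11.4 in WT and 18.9, 18.4 and 21.8 in *Mtm1* KO. The groups did not overlap, but the log2 fold change of 0.60 ± 0.13 (SE) had an adjusted p of 0.0222. In WT + TAM it had 15.8, 10.5, 13.9 and 13.6, and in *Mtm1* KO + TAM 17.7, 19.5, 23.2 and 30.01, again without overlap. The left-out KO replicate 12 had 12.3, within the WT range. The receptor genes *Fpr1* and *Fpr2* had too few counts to be tested.

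*Anxa5*, the phosphatidylserine binder used to stain dying cells, had 69.1, 45.1 and 50.2 in WT and 74.5, 104 and 80.8 in *Mtm1* KO. Its log2 fold change was 0.66 ± 0.20 (SE, adjusted p = 0.0592). *Anxa6*, the largest annexin and a component of the repair cap, had 88.8, 92.8 and 79.7 in WT and 101, 105 and 95.4 in *Mtm1* KO, a log2 fold change of 0.21 ± 0.12 (SE, adjusted p = 0.285). Neither passed the threshold, though in each the untreated *Mtm1* KO libraries analysed were all above the WT libraries analysed. The left-out WT replicate 1 had 75.2 for *Anxa5*, above KO replicate 9. *Mtm1* KO + TAM replicate 15 had the highest *Anxa6* level of the 14, at 155.

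*Ano5*, an anoctamin that scrambles phospholipids in the sarcoplasmic reticulum, was the 1 gene of the 10 that was lower. Its level was 22.7, 31.4 and 19.6 in WT and 15.6, 10.2 and 13.1 in *Mtm1* KO. In the treated groups it was 17.3, 31.8, 19.3 and 19.9 in WT + TAM and 10.1, 12.8, 13.3 and 13.2 in *Mtm1* KO + TAM. Every knockout library analysed was below every wild-type library analysed. The log2 fold change of *Ano5* was -0.92 ± 0.20 (SE, adjusted p = 0.0197) in untreated muscle, and DESeq2 gave an adjusted p of 1.18e-04. Both left-out libraries had low levels, 9.16 in WT replicate 1, below every knockout library analysed, and 6.39 in KO replicate 12. With both added, the edgeR log2 fold change of *Ano5* for *Mtm1* KO against WT was -0.87 ± 0.35 (SE, adjusted p = 0.192).

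*Dysf* (chr6:84008590-84211060, plus strand), the calcium sensor for vesicle fusion at a wound, was spread within the untreated groups. Its level was 9.26, 22.6 and 11.03 in WT, 12.1, 17.97 and 29.5 in *Mtm1* KO, 9.31, 11.1, 10.8 and 10.6 in WT + TAM, and 10.2, 10.4, 15.1 and 12.2 in *Mtm1* KO + TAM. The groups overlapped in each comparison, and WT replicate 3 and KO replicate 11 were high. The log2 fold change for *Mtm1* KO against WT was 0.49 with a 95% interval of -0.36 to 1.33, so differences in either direction lie within it. Opposite-strand genes share exonic bases with members, *Gm15475* over 4.23% and *Gm33024* over 1.26% of the *Dysf* exons, while *Gm16144* shares 2.63% with *Anxa2* and *Gm44036* 1.61% with *Anxa4*. Reads there cannot be assigned to a gene without the strand setting, which is not given in the sources used here.

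**Figure D2:**
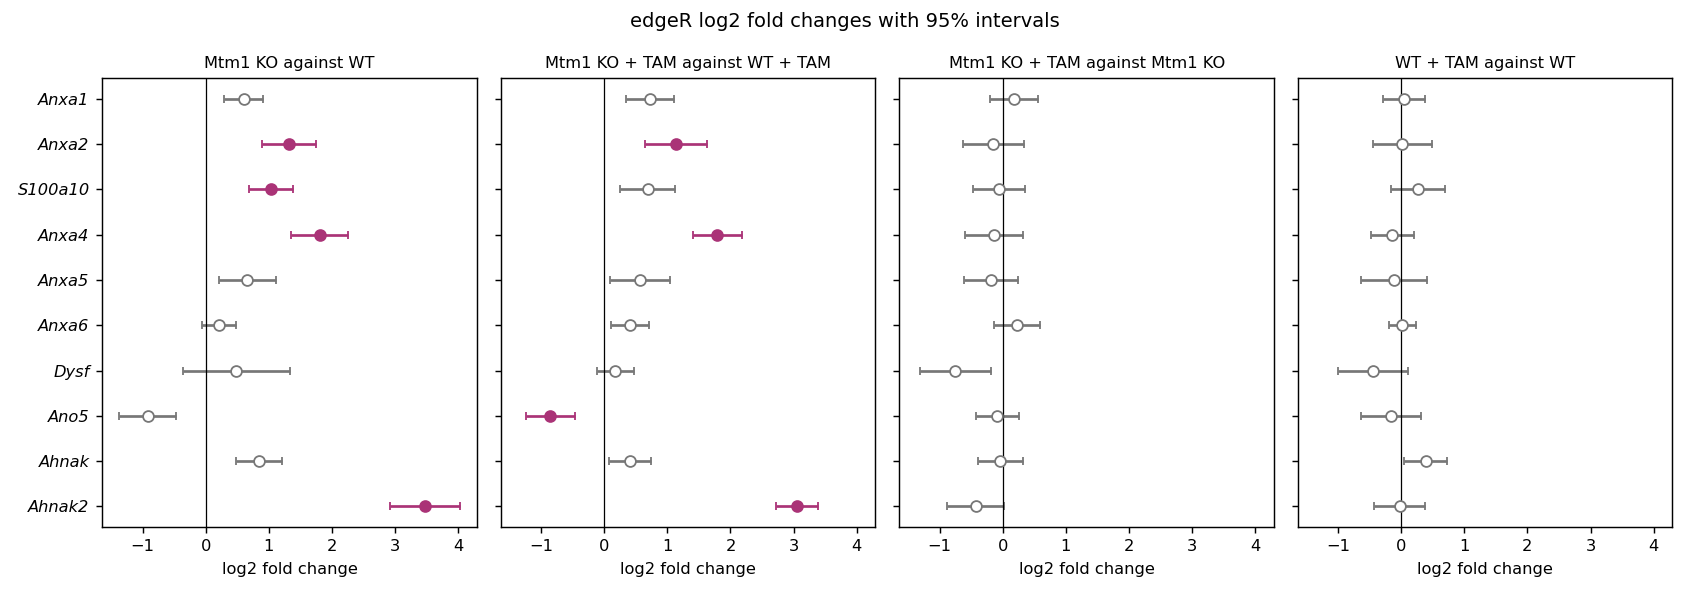
log2 fold changes (horizontal axes) of the 10 genes in 4 comparisons, from edgeR's quasi-likelihood fit, with 95% intervals. Filled points passed an adjusted p of 0.01, 4 genes in each genotype comparison and 0 in each tamoxifen comparison.

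The comparison of *Mtm1* KO + TAM with WT + TAM repeats the genotype question in animals on the drug. *Ahnak2* (log2 fold change 3.06 ± 0.15), *Anxa4* (1.79 ± 0.18) and *Anxa2* (1.14 ± 0.23) were higher, and *Ano5* (-0.85 ± 0.18) was lower, 3 and 1 of the 10 against 3.42% and 3.3% of 14563 genes. The adjusted p was 1.64e-04 for *Anxa4*, 0.00658 for *Anxa2* and 0.00851 for *Ano5*. Groups did not overlap for 5 genes that were higher and 1 that was lower, against 11.8% and 10.6% of genes. *Anxa2* and *Ano5* each passed in 2 of the 8 fits that left out a library, and *Ahnak2* and *Anxa4* in all 8. With 1 library left out, 2 to 4 genes were called, and 2 of them without WT + TAM replicate 7 or 8 or *Mtm1* KO + TAM replicate 13, 15 or 16. Scaling by library total alone called 7, adding *Anxa1*, *Anxa6*, *S100a10* and *Ahnak*, and no longer called *Ano5* (log2 fold change -0.57, adjusted p = 0.0436). That scaling called 1874 of all genes, against 979 with TMM, and moved the median over all genes from -0.01 to 0.27. With limma, run on RPKM without TMM factors, the adjusted p of *Ano5* was 0.0612 with 0.1 added and 0.0639 with 1 added. The median log2 difference over all genes was 0.25 and 0.16 in these fits.

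*Mtm1* KO + TAM was also set against untreated WT, which asks how far treated muscle stands from the normal state. *Ahnak2*, *Anxa4*, *Anxa2*, *S100a10* and *Ahnak* were higher and *Ano5* was lower, 5 and 1 of the 10 against 3.56% and 4.14% of 14942 genes. The log2 fold changes were 3.03 for *Ahnak2*, 1.65 for *Anxa4*, 1.16 for *Anxa2*, 0.96 for *S100a10*, 0.80 for *Ahnak* and -1.02 for *Ano5*. These libraries also enter the other comparisons, so the values are not independent of them. In the 7 fits that left out a library, *Ahnak2*, *Anxa4* and *Ano5* passed in all 7, *Anxa2* and *Ahnak* in 5 and *S100a10* in 2, and 3 genes were called without WT replicate 4. With the left-out libraries added the count was also 3, with adjusted p of 0.0991 for *Anxa2*, 0.0999 for *S100a10* and 0.137 for *Ano5*. With limma, run without TMM factors, the adjusted p of *Ano5* was 0.0135 and 0.0145.

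Fitting all 14 libraries with a term for genotype and a term for tamoxifen uses both treatments at once. Of the 10 genes, 7 were higher and 1 lower in the knockout, against 9.44% and 10.7% of 15556 genes. The log2 differences were 3.23 ± 0.15 for *Ahnak2*, 1.79 ± 0.14 for *Anxa4*, 1.21 ± 0.16 for *Anxa2*, 0.83 ± 0.14 for *S100a10*, 0.66 ± 0.12 for *Anxa1*, 0.60 ± 0.16 for *Anxa5*, 0.59 ± 0.12 for *Ahnak* and -0.89 ± 0.14 for *Ano5*. The other two, *Anxa6* (0.31 ± 0.09, adjusted p = 0.0180) and *Dysf* (0.30 ± 0.20, adjusted p = 0.267), did not pass. Leaving out any 1 library kept 7 of these calls, and *Anxa5* was called in 5 of 14 such fits. With the left-out libraries added, 7 genes were called and *Anxa5* was not.

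Tamoxifen did not call any of the 10 in *Mtm1* KO muscle. In *Mtm1* KO + TAM against *Mtm1* KO, 0 of 10 genes and 0% of 15062 genes passed in edgeR, and DESeq2, the exact test and limma also called 0 of the 10, where DESeq2 called 72 genes in all and the exact test 73. At an unadjusted p under 0.05, 1 of the 10 passed, beside 7.55% of genes. This was *Dysf*, with levels lower by 0.75 ± 0.26 on the log2 scale (95% interval -1.31 to -0.19, edgeR adjusted p = 0.469). The difference for *Dysf* was -0.34 without KO replicate 11 and -1.01 without KO replicate 9. The interval for *Ahnak2* was -0.88 to 0.03, for *Anxa4* -0.61 to 0.32 and for *Anxa2* -0.63 to 0.33. For *Ano5* it was -0.43 to 0.26 and for *S100a10* -0.47 to 0.34, so changes of either sign lie within most of these intervals.

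In WT muscle, tamoxifen also called 0 of 10, against 0.131% of 14544 genes, and the other tools called 0 as well. *Ahnak* alone passed an unadjusted p under 0.05, beside 10.7% of genes, with a log2 fold change of 0.39 ± 0.16 (SE, edgeR adjusted p = 0.419) and all 4 WT + TAM libraries above the 3 WT libraries. Over both genotypes tamoxifen called 0 of 10 against 0.476% of genes, DESeq2 also called 0 of the 10, and *Dysf* alone had an unadjusted p under 0.05, beside 14.1%, at -0.60 ± 0.20 on the log2 scale (edgeR adjusted p = 0.160). The difference of the tamoxifen effect between genotypes called 0 of 10 and 0% of genes in edgeR, DESeq2 called 0 of the 10 and 12 genes in all, and 0 of the 10 passed an unadjusted p under 0.05, beside 4.27% of genes.

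Among all annexins the mean make-up differed between genotypes, and of the shares only that of *Anxa2* was tested. The summed annexin level was 226 ± 16.3 (SD, n = 3) in WT, 227 ± 21.1 (n = 4) in WT + TAM, 351 ± 27.8 (n = 3) in *Mtm1* KO and 370 ± 58.2 (n = 4) in *Mtm1* KO + TAM. *Anxa2* made up 10.8% of it over the 7 wild-type libraries and 15.8% over the 7 knockout libraries, a difference of 5.07 points with p = 0.00175 in an exact two-sided permutation test. The genotypes overlapped in this share, with *Mtm1* KO + TAM replicate 14 at 11.5% and WT + TAM replicates 7 and 8 at 12.1% and 12.2%. Within the untreated libraries the difference was 6.36 points (exact p = 0.10, the smallest for 3 against 3) and within the treated ones 4.10 points (exact p = 0.0857). *Anxa6*, the largest share, made up 38.6 ± 2.46% (SD, n = 3) in WT and 28.7 ± 2.67% (n = 3) in *Mtm1* KO, and *Anxa4* 1.60 ± 0.22% and 3.58 ± 0.82%. With the left-out libraries added, the share of *Anxa2* differed by 5.94 points (exact p = 0.0103).

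**Figure D3:**
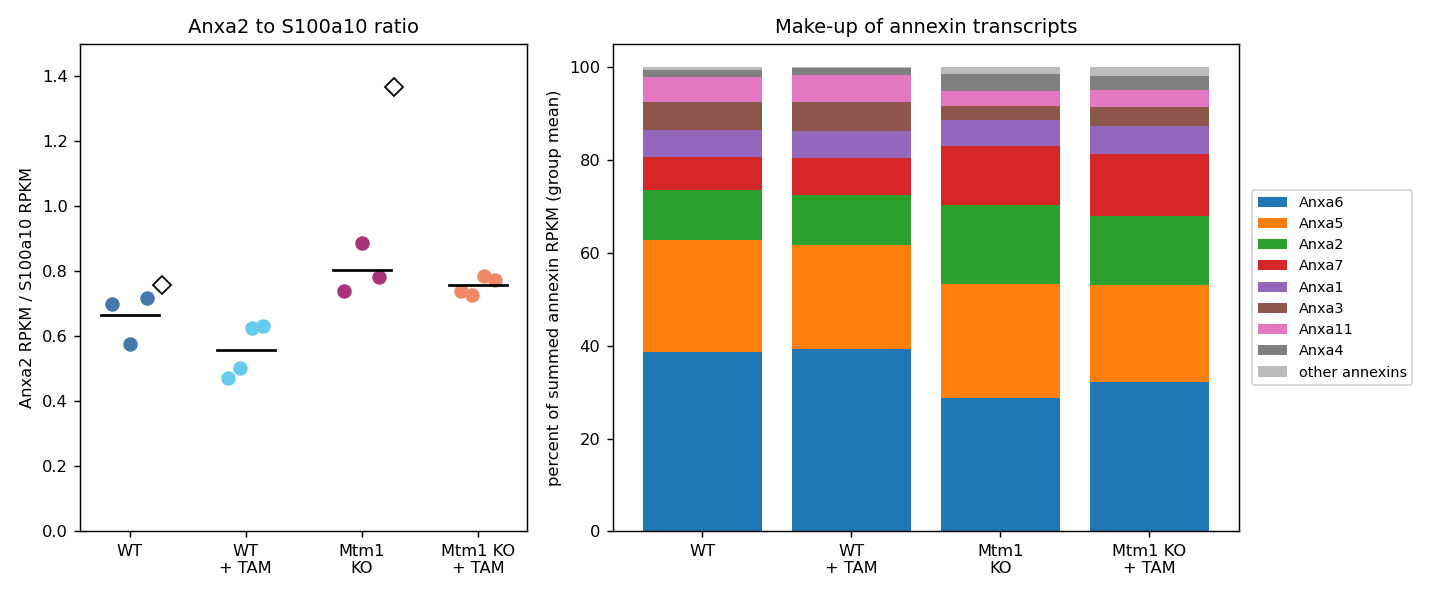
Left, *Anxa2* RPKM over *S100a10* RPKM (vertical axis) in each library by group, with group means as lines and the left-out libraries as open diamonds. Right, mean percent of the summed annexin RPKM for each annexin (stacked to 100) by group, with *Anxa2*, *Anxa4* and *Anxa7* taking more and *Anxa6* less in the knockout groups.

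Of the 7 other annexins, 5 had enough counts in *Mtm1* KO against WT, and 1 of these, *Anxa7*, a calcium-dependent membrane fusion protein, was higher (log2 fold change 1.49 ± 0.17, adjusted p = 0.00131). Its level was 15.9 ± 1.39 (SD, n = 3) in WT and 44.7 ± 9.18 (SD, n = 3) in *Mtm1* KO. On tamoxifen 2 of 5 were higher, *Anxa7* (1.45 ± 0.20) and *Anxa8* (4.09 ± 0.46), the latter at a low level of 0.374 ± 0.22 in WT + TAM and 6.47 ± 3.25 in *Mtm1* KO + TAM (SD, n = 4 each). *Anxa10* was listed at 0 in all 14 libraries.

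The 4 annexin-binding S100 genes tested had log2 fold changes above 0, and 2 were higher in *Mtm1* KO. *S100a4*, a partner of non-muscle myosin and annexin A2, had 21.2 ± 12.3 in WT and 127 ± 26.7 in *Mtm1* KO (SD, n = 3 each, log2 fold change 2.60 ± 0.35, adjusted p = 0.00296). *S100a6*, which binds several annexins, had 82.2 ± 2.01 in WT and 207 ± 76.9 in *Mtm1* KO (SD, n = 3 each) and rose by 1.34 ± 0.24 (adjusted p = 0.00966). *S100a11*, an annexin A1 and A2 partner in repair, had 0.75 ± 0.19 (adjusted p = 0.0367), and it passed over both treatments (0.59 ± 0.15, adjusted p = 0.00553).

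Of the 11 genes of the repair cap and vesicle fusion, 0 passed in untreated muscle, with a median log2 fold change of 0.24 beside 0.02 over all genes tested, and over both treatments 1 of 11 did, *Vamp2* (0.41 ± 0.08), a vesicle SNARE. *Trim72*, the muscle E3 ligase that nucleates the patch, had 0.24 ± 0.15 (adjusted p = 0.313), and *Cav3*, the caveolin of muscle, 0.29 ± 0.17 (adjusted p = 0.286). The ferlin *Myof*, a relative of *Dysf* active in myoblast fusion, had 0.17 ± 0.18 (adjusted p = 0.547) in edgeR for *Mtm1* KO against WT.

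Among the calpains, proteases that act on damaged membrane, *Capn3*, the muscle calpain mutated in limb-girdle dystrophy, was lower by 0.94 ± 0.15 on the log2 scale in *Mtm1* KO (27.4 ± 5.49 in WT, 14.2 ± 0.95 in *Mtm1* KO, SD, n = 3 each, adjusted p = 0.00614). Over both treatments *Capns1*, the calpain small subunit, was higher (0.61 ± 0.09). Of 7 genes of ESCRT membrane shedding, 0 passed in untreated muscle, and *Pdcd6* (0.40 ± 0.10) and its partner *Pdcd6ip* (0.30 ± 0.08) were higher over both treatments. Of 5 genes of lysosomal exocytosis, 0 passed in either.

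In the surface plasminogen system, which annexin A2 and S100A10 concentrate at the membrane, *Plaur*, the urokinase receptor, was higher over both treatments (0.83 ± 0.23). Of the relatives of *Ano5* and *Dysf*, *Ano8* (-0.56 ± 0.11, adjusted p = 0.00626) and *Fer1l6* (-1.53 ± 0.30, adjusted p = 0.00674) were lower in *Mtm1* KO + TAM than in WT + TAM. *Ano1* was lower in *Mtm1* KO + TAM than in untreated WT (-0.84 ± 0.18, adjusted p = 0.00872), groups that differ in both genotype and drug. Its mean level was 1.38 in WT, 0.945 in WT + TAM, 1.11 in *Mtm1* KO and 0.786 in *Mtm1* KO + TAM. *Fer1l6* was scarce, at 0.593 ± 0.20 in WT + TAM and 0.209 ± 0.04 in *Mtm1* KO + TAM (SD, n = 4 each).

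**Figure D4:**
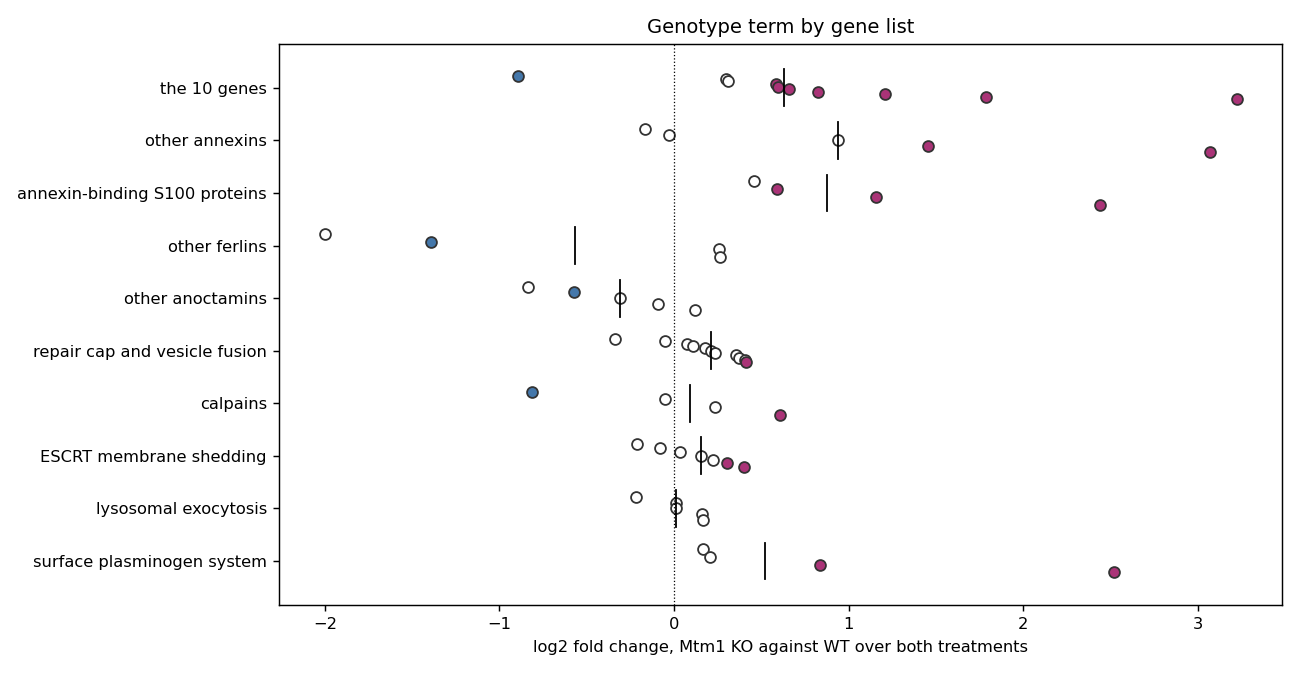
log2 fold changes for the genotype term over both treatments (horizontal axis), 1 row for each gene list and 1 point for each tested gene. Filled points were called at an adjusted p of 0.01 (higher to the right of 0, lower to the left) and vertical bars mark list medians, 0.63 for the 10 genes and 0.21 for repair cap and vesicle fusion.

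Quadriceps RNA holds fibers, fibroblasts, vessels and immune cells, so fewer cells of a type and less RNA per cell cannot be told apart in these data. The fiber markers, *Acta1* and *Ttn* among them, summed to a TMM-scaled RPKM of 38622 to 90320 in the 14 libraries. Of 6 fiber markers, 0 were called in *Mtm1* KO against WT, and over both treatments 4 of 6 were called lower. In *Mtm1* KO against WT, 5 of the 6 had log2 fold changes below 0 and 1 above, *Mb* (0.62). The sums were 69694 to 90320 in WT and 42434 to 48406 in *Mtm1* KO. They are mostly *Acta1*, *Ckm* and *Tnnt3*, with WT means of 30018, 21484 and 17296, where *Mb* had 1337. Of 5 regenerating or embryonic fiber markers, 5 were higher in *Mtm1* KO, with sums of 24.6 to 29.4 in WT, 17.7 to 37.1 in WT + TAM, 92.0 to 132 in *Mtm1* KO and 74.5 to 97.0 in *Mtm1* KO + TAM.

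Of 6 macrophage and leukocyte markers, 0 were called in *Mtm1* KO against WT and 2, *Ptprc* and *Cd68*, over both treatments, with sums of 58.0 to 68.8 in WT, 28.8 to 77.6 in WT + TAM, 86.8 to 104 in *Mtm1* KO and 81.8 to 142 in *Mtm1* KO + TAM. Of 6 fibroblast markers, 3 were higher over both treatments (*Pdgfra*, *Dcn* and *Lum*). In *Mtm1* KO against WT, 4 of the 6 had log2 fold changes above 0 and 2 below, *Col1a1* (-0.28) and *Col3a1* (-0.42), with 0 called. The sums were 826 to 927 in WT, 532 to 779 in WT + TAM, 808 to 1075 in *Mtm1* KO and 802 to 851 in *Mtm1* KO + TAM. Of 3 satellite cell markers 1, *Calcr*, was lower in *Mtm1* KO and at 0 in 1 of its libraries, and *Pax7* was also lower over both treatments, with sums of 1.12 to 2.37 in WT and 0.648 to 1.23 in *Mtm1* KO.

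The other lists had 0 markers called in *Mtm1* KO against WT. Endothelial markers summed to 49.6 to 70.3 in WT and 39.1 to 58.0 in *Mtm1* KO, and 1 of 4, *Tek*, was lower over both treatments. Smooth muscle markers summed to 92.5 to 100.3 and 58.2 to 67.6, and 2 of 3, *Myh11* and *Acta2*, were lower over both treatments. Fat cell markers summed to 11.4 to 174 and 71.4 to 167 and red blood cell markers to 83.3 to 171 and 71.5 to 237, with 0 called over both treatments. The fiber, regenerating fiber, leukocyte, fibroblast, satellite cell, endothelial and smooth muscle markers that were called differed by genotype beside the 10 genes, and their part in the result was not tested.

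Some pairs of the 10 genes are described by correlations of the deviations of 14 libraries from their group means. *Anxa2* and *Anxa5* had r = 0.94, *Anxa2* and *S100a10* r = 0.91, and *Anxa4* and *Ahnak2* r = 0.82, while *Anxa2* and *Ano5* had r = -0.63 and *Anxa2* and *Ahnak* r = -0.32. All points share library and depth within a mouse. Within its group, WT + TAM replicate 6 had the lowest *Anxa2* (15.2), *Anxa5* (32.2) and *S100a10* (30.3) and the highest *Ano5* (31.8) and *Ahnak* (23.1), and its part in these values was not tested. Over all 14 libraries without removing group means, the genes most like *Anxa2* in log2 level were *Capg*, an actin-capping protein (r = 0.98), *Tuba1b*, an alpha-tubulin (0.97), and *Mfap5*, a microfibril protein (0.97), among 9874 genes. Those most like *Dysf* were *Fbxo10* (0.84), *Klc1* (0.83) and *Wdfy1* (0.82). The genotype difference enters the values for *Anxa2*, and no p is given.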

How the data were processed

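RNA from mouse quadriceps was sequenced in 16 libraries, of which the 14 that the study analysed were used. Per the labels and methods, STAR placed the reads on GRCm38, HTSeq assigned them to genes, and the deposited counts are the authors' raw values. The submitters' processing notes name bcl2fastq 2.17, STAR 2.5.0c and Cufflinks 2.2.1. The deposited RPKM values were scaled by the authors to total count and gene length, and for the levels shown were divided here by TMM factors over the 16 libraries. The limma fits used the deposited values without these factors. The strand setting of the counting was not found in the labels or methods.

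Counts were tested with edgeR 4.0.16 (quasi-likelihood, TMM, filterByExpr with a minimum count of 10 and total of 15) in R 4.3.3, with Benjamini-Hochberg adjustment over all genes tested and a threshold of 0.01. Intervals are at 95%. Ratios within a library were compared by exact permutation tests. Alternatives were DESeq2 1.42.0, limma 3.58.1 on log2(RPKM + 0.1) and log2(RPKM + 1), edgeR's exact test, RLE or library-size scaling, 1 fit of all groups, other filters, a threshold of 0.05, all 16 libraries and leaving out each library. Each library was 1 mouse per the study's methods.

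The 10 genes and all gene lists were chosen with earlier results of these data known. Named besides the 10 were list genes called in a genotype or tamoxifen comparison, *Trim72*, *Cav3*, *Capn3*, *Myof* and *S100a11*, the 3 genes most correlated with *Anxa2* and with *Dysf* among genes with a mean CPM of at least 5, and *Mtm1*. *Ano1* was named after its value was seen. Some genes of these lists are not reported here. Positions are from GENCODE vM21, and promoter windows from RefSeq.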

Additional observations from a re-analysis of the deposited data

Results flagged for a closer look

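Dixon's criterion was applied within WT + TAM and within *Mtm1* KO + TAM to the 10 genes, the *Anxa2* to *S100a10* ratio and the *Anxa2* share. Of these 24 tests, 3 had a library far from the others. Chance alone gives about 1 in 20 for a single test. The 24 tests share the same mice and are not independent, so the count cannot be judged against that rate. *Anxa2* was at 15.2 in WT + TAM replicate 6, below the other libraries of its group. *Ano5* was at 10.1 and *Ahnak* at 20.9 in *Mtm1* KO + TAM replicate 13, both below the rest.

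The libraries that the study left out held levels above the highest of the 3 WT libraries analysed. In WT replicate 1 this was so for *Anxa2* (47.7, where the highest WT library had 27.2), *Anxa5* (75.2 and 69.1), *S100a10* (63.0 and 39.1) and *Ahnak2* (0.785 and 0.489). In KO replicate 12 it was so for *Anxa2* at 124, *Anxa4* at 10.9, *Anxa5* at 112, *Anxa6* at 101, *S100a10* at 90.9, *Dysf* at 29.3, *Ahnak* at 21.0 and *Ahnak2* at 6.90. No reason for leaving these libraries out was found in the sources used here, and the cause of these levels was not tested.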

How the results depend on the processing

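No paired analysis was possible because the replicate numbers run from 1 to 16 and no number is shared between groups, and the labels do not identify litters, though the study states that the mice were littermates. Of 680 values of the 10 genes under the alternatives, 619 kept their direction and side of the threshold, 38 passed it only under the alternative, 11 no longer passed it and 12 changed sign, and of 770 values without 1 library 685 kept both. In *Mtm1* KO against WT, 4 genes were called, and 7 at a threshold of 0.05, with DESeq2 or with the exact test, 2 with all 16 libraries, and 2 to 4 without 1 library. Called over all genes were 531 in the main test, 1885 at 0.05, 1678 with DESeq2, 1448 with the exact test and 211 with 16 libraries. In *Mtm1* KO + TAM against WT + TAM, 4 were called, 7 with scaling by library total alone (without *Ano5*), and 2 to 4 without 1 library. Scaling by library total alone called 1874 of all genes there, against 979 in the main test. In *Mtm1* KO + TAM against WT, 6 were called, 3 with all 16 libraries, and 3 to 6 without 1 library. Over all genes, 1150 were called there in the main test and 297 with all 16 libraries. Over both treatments 8 were called, 7 to 8 without 1 library, and in every tamoxifen comparison 0 were called under every alternative run. The ratio of *Anxa2* to *S100a10* differed by 0.28 in the untreated libraries alone, and the share of *Anxa2* by 6.36 points there and 4.10 points in the treated libraries alone, with exact p above 0.05, and 3 against 3 cannot go below 0.10. Without 1 library they stayed at 0.32 to 0.42 and 4.37 to 5.79 points. With 16 libraries, log2 differences that changed sign were 0.11 for *Ano5* and 0.018 for *Ahnak* in *Mtm1* KO + TAM against *Mtm1* KO, -0.30 for *Anxa2* and 0.089 for *Ano5* in WT + TAM against WT, and -0.058 for *S100a10* and 0.10 for *Ano5* for tamoxifen over both genotypes. With limma on RPKM without TMM factors, those for *Anxa2* in WT + TAM against WT were -0.020 (0.1 added) and -0.018 (1 added). Those for *Dysf* in *Mtm1* KO + TAM against WT were 0.090 and 0.080. With scaling by library total alone they were 0.038 for *Dysf* in *Mtm1* KO + TAM against WT and -0.015 for *Anxa4* in the difference of the tamoxifen effects. Without 1 library, values changed sign in several comparisons, none of them called, for *Dysf* without WT replicate 3 in both treated groups against WT. As lowest to highest log2 differences, in *Mtm1* KO + TAM against *Mtm1* KO they were *Anxa2* -0.32 to 0.038, *Anxa4* -0.33 to 0.095, *S100a10* -0.19 to 0.078, *Ano5* -0.22 to 0.058 and *Ahnak* -0.15 to 0.15. In WT + TAM against WT they were *Anxa1* -0.049 to 0.15, *Anxa2* -0.058 to 0.20, *Anxa5* -0.25 to 0.099, *Anxa6* -0.029 to 0.046, *Dysf* -0.67 to 0.014, *Ano5* -0.38 to 0.029 and *Ahnak2* -0.12 to 0.11. In the difference of the tamoxifen effects they were *Anxa1* -0.014 to 0.25, *Anxa2* -0.34 to 0.027, *Anxa4* -0.18 to 0.24, *Anxa5* -0.27 to 0.099, *Dysf* -0.76 to 0.11 and *Ano5* -0.11 to 0.31. In tamoxifen over both genotypes they were *Anxa2* -0.13 to 0.032. In *Mtm1* KO + TAM against WT they were *Dysf* -0.51 to 0.19. Where a fit left out a library it also had fewer samples, and otherwise the cause was not tested.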
